A study of Homo sapiens with 4 samples.

Results

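Tight junction genes in LSD1 knockdown and control prostate cancer cells are described here as a named set of 9: the claudin genes CLDN1, CLDN3, CLDN4, CLDN7 and CLDN12, the occludin gene OCLN, the zonula occludens genes TJP1 and TJP3, and F11R. They were chosen by name, with earlier results of these data known. Of the 9, 8 had a row among the 22841 gene symbols of the count tables. No row carried a TJP3 accession of the symbol tables used here, so TJP3 was not analysed here. RNA came from PC-3M-luc, an established metastatic line of human prostate carcinoma cells carrying a luciferase reporter, transfected with an RNAi control or with RNAi against LSD1 and collected after 72 h. Each group held 2 libraries that the labels call biological replicates, all from 1 cell line. The RNAi sequences were not analysed here.

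Tight junctions are the uppermost seals between neighbouring epithelial cells. Claudins are small proteins with several membrane-spanning segments whose extracellular loops join across the gap, and the mixture of claudins present sets which ions pass. Occludin and the immunoglobulin-type adhesion molecule encoded by F11R also span the membrane, and the zonula occludens scaffolds, of which ZO-1 is encoded by TJP1, tie them to actin. LSD1, the histone demethylase encoded by KDM1A, acts with corepressors that the Snail family of transcription factors recruits, and Snail and ZEB factors are known repressors of epithelial junction genes that bind DNA at the letters CAGGTG or, read on the other strand, CACCTG.

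Library totals over genes ran from 12040681 to 12831374 counts, and 3 counts in a library equalled 0.234 to 0.249 CPM (counts scaled to library size). These 2 values use the library totals alone, while the gene levels in CPM also carry the TMM scaling described under processing. KDM1A checked the labels: 2920 and 2892 counts in the controls became 218 and 234 after knockdown, or 7.59% of the control CPM. Replicates of a group differed by a chi-square per gene of 4.29 to 4.96, against at least 26.5 between groups, so no 2 libraries were copies. The epithelial markers KRT8, KRT18, KRT19, EPCAM and CDH1 were all expressed, and their summed level was 998 and 1014 CPM in control and 1067 and 1112 CPM in knockdown libraries. KRT8, EPCAM and CDH1 rose, and KRT18 and KRT19 did not pass. Of 4 leukocyte markers 3 were at 0 in all libraries, the other reached 1 count, and their summed level was 0 to 0.0818 CPM. Of 4 endothelial markers CDH5 was at 0, and the summed level of the list was 3.29 and 3.54 CPM in control and 1.62 and 2.45 CPM in knockdown libraries. Its 1 tested gene, PECAM1, fell 1.66-fold (edgeR adjusted p = 0.0482). Of the mesenchymal markers VIM and FN1 fell, and CDH2 did not pass. Of the fibroblast markers COL1A2 rose 1.52-fold (edgeR adjusted p = 0.000731), COL1A1 did not pass, LUM was at 0 and DCN had at most 1 count, with summed levels of 46.7 and 50.1 CPM in control and 52.7 and 56.8 CPM in knockdown libraries. The part of these markers in the member values was not tested.

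The CAGGTG or CACCTG letters were looked for on both strands in RefSeq start-site windows of GRCh38.p14, each of 250 bases before and 50 after an annotated start. Across all 35116 windows 20.6% held a match, and 5 of 12 windows of the 7 members listed there did. Matches lay before a start of OCLN, TJP1 and CLDN7 and only after the start of CLDN3. The windows of CLDN1, CLDN4 and CLDN12 held none, and F11R had no window. Below, the matches are in capitals in the 250 bases before the first TJP1 start (chr15:29969050-29969299, minus strand) and in stretches of 30 bases before the first OCLN start (chr5:69492502-69492531, plus strand) and before the second CLDN7 start (chr17:7262479-7262508, minus strand). They are shown because they let a reader set the letters beside the transcript changes described next. In GENCODE v29 all 250 bases before this OCLN start and before this CLDN7 start lie in annotated exons of the same gene. Of the bases before this TJP1 start 0 lie in an exon. A match is only a string of letters, and no binding was measured.
TJP1: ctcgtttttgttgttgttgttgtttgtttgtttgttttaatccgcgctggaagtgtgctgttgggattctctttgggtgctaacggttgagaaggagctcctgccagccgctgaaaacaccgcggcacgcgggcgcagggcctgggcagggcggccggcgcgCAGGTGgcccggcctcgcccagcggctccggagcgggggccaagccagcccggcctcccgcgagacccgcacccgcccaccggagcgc
OCLN: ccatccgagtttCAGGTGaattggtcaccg
CLDN7: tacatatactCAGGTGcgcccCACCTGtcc

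Among the 8 measured members 4 rose after LSD1 knockdown, 1 fell and 3 did not pass the test. CLDN1, CLDN12, OCLN and F11R rose, and CLDN4, by far the most abundant claudin transcript of these cells, fell. All 8 passed the filter on low counts. Calls were made by the quasi-likelihood test of edgeR at a Benjamini-Hochberg adjusted p under 0.05 over 13247 genes, of which 18.2% were called higher and 17.9% lower, together 36.1%. The members' median log2 fold change (knockdown over control) was 0.32, against 0.0023 over all tested genes, and their median absolute value was 0.47, against 0.23. Because the members were chosen with earlier results of these data known, no conclusion is drawn from these medians. In all 8 members the 2 groups did not overlap, which was so for 67.2% of all tested genes. In bulk RNA, fewer cells with a transcript and less of it per cell cannot be told apart.

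**Figure D1:**
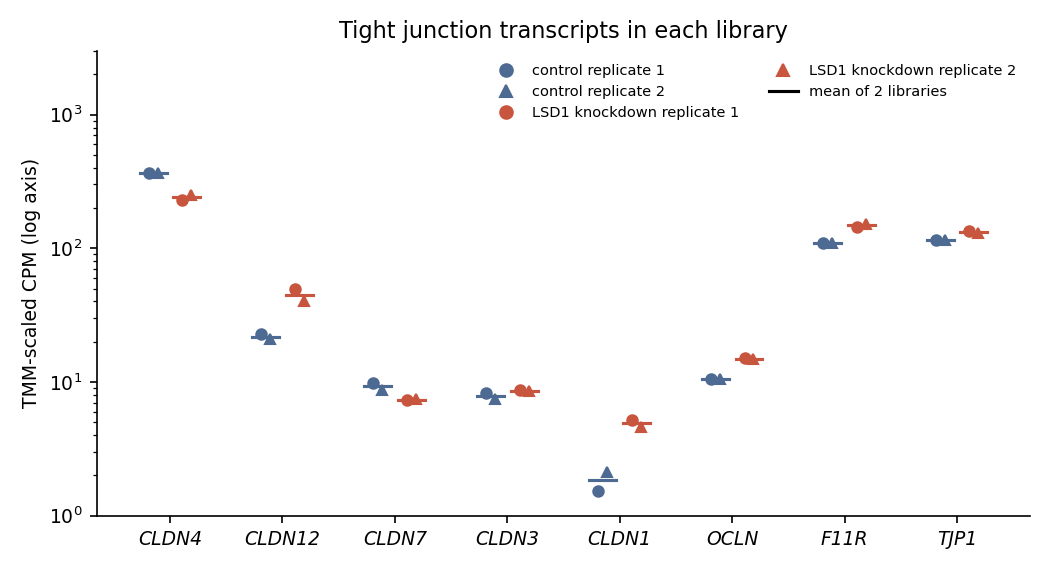
TMM-scaled CPM on a log axis for each of the 8 measured members in each of the 4 libraries, with bars at the mean of 2 libraries. CLDN4 is the highest, with both knockdown libraries below both control libraries, and CLDN1 and CLDN12 show the widest gaps upward.

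CLDN4, a claudin found in many tight epithelia, had 4533 and 4438 counts without knockdown and 2793 and 3267 with it. Both knockdown libraries lay below both control libraries. The level fell from 364.9 ± 0.264 to 240.4 ± 16.9 CPM (SD, n = 2 each). On the log2 scale the change was -0.60, standard error 0.0816 (edgeR adjusted p = 5.6e-07), or 1.52-fold. The deposited table has 1 row for this gene, NM_001305.

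CLDN12, an atypical claudin without the C-terminal PDZ-binding end of most of the family, moved the other way. Its counts were 282 and 256 in control and 601 and 518 in knockdown libraries. Each knockdown library was well above either control library, and they differed more from each other than the controls did. The level rose from 21.9 ± 1.15 to 44.6 ± 6.48 CPM (SD, n = 2 each). That is 1.03 on the log2 scale, standard error 0.112 (edgeR adjusted p = 1.01e-08). All 3 rows of the gene carried almost the same counts. In GENCODE v29 some CLDN12 exons overlap CDK14 over 201 nucleotides and GTPBP10 over 347 nucleotides on the same strand. Those genes stood at 18.9 and 26.2 CPM in control and 22.5 and 23.8 CPM in knockdown cells, and their part in the CLDN12 value was not tested.

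CLDN1, a barrier-forming claudin of skin and other epithelia, had the largest fold change of the set and the lowest level. It had 19 and 26 counts in control and 63 and 60 counts in knockdown libraries, so the control libraries sat near the low end of what these depths measure. The level rose from 1.83 ± 0.431 to 4.89 ± 0.367 CPM (SD, n = 2 each), or 2.66-fold, with a log2 fold change of 1.41, a standard error of 0.266 and a 95% interval of 0.87 to 1.95 (edgeR adjusted p = 7.96e-05). Without control replicate 2, the higher of the 2, it was 1.67, and without control replicate 1 it was 1.19.

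CLDN3 and CLDN7, claudins that are often expressed together with CLDN4 in simple epithelia, did not pass. CLDN3 had 102 and 90 counts in control and 106 and 111 in knockdown libraries. Its level was 7.80 ± 0.568 CPM in control and 8.62 ± 0.0696 CPM in knockdown cells (SD, n = 2 each), with a 95% interval for the log2 fold change of -0.20 to 0.48 (edgeR adjusted p = 0.544). CLDN7 had 123 and 105 counts in control and 89 and 96 counts in knockdown libraries. Its level was 9.27 ± 0.89 CPM in control and 7.35 ± 0.0946 CPM in knockdown cells (SD, n = 2 each), with an interval of -0.68 to 0.01 (edgeR adjusted p = 0.12), so a fall as large as that of CLDN4 lies within it. Further CLDN7 rows had 119 and 97 against 84 and 95 counts, and 119 and 91 against 79 and 94 counts. CLDN7 exons overlap AC003688.1 on the same strand over 269 nucleotides and ELP5 on the opposite strand over 38. The part of these genes in the CLDN7 value was not tested. CLDN3 and CLDN4 are near neighbours on chromosome 7, with 0 RefSeq genes lying wholly between them in GRCh38.p14, and their intervals, -0.20 to 0.48 and -0.77 to -0.44, did not overlap.

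OCLN, which encodes occludin, had 130 and 129 counts in control and 184 and 191 counts in knockdown libraries. Replicates lay close together and the groups were apart. The level rose from 10.5 ± 0.108 to 14.9 ± 0.213 CPM (SD, n = 2 each). The log2 change was 0.50, standard error 0.141 (edgeR adjusted p = 0.00561), a call that DESeq2 did not make (DESeq2 adjusted p = 0.0658). The gene has 2 further rows, and whether reads were counted in more than 1 row is not stated. NM_002538 had 122 and 106 against 154 and 165 counts, and NM_001205255 had 91 and 71 against 109 and 120 counts. All 3 rows were higher in both knockdown libraries. Rows of CLDN12 had almost the same counts as each other, so the OCLN rows are not taken as separate measures. The near-identical pseudogene OCLNP1 had 2 and 5 against 8 and 7 counts, so few reads were assigned to that copy.

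F11R, also called JAM-A, is an adhesion molecule that gathers polarity proteins at forming junctions. Its counts were 1370 and 1323 in control and 1757 and 1978 in knockdown libraries, with no overlap. The level rose from 109.5 ± 0.984 to 148.2 ± 6.39 CPM (SD, n = 2 each), or 1.35-fold (log2 fold change 0.44, standard error 0.0826, edgeR adjusted p = 8.48e-05). Its exons overlap the GENCODE gene AL591806.3 on the same strand over 1853 nucleotides. Earlier work on these libraries picked 6 candidate 7-mers for the RNAi reagents after fold changes were seen. The coding transcripts of F11R hold ACTTCGA, those of CLDN1 hold TAGAAGA and those of TJP1 hold TAGAAGA and CTAGAAG, searched on the sense strand. At least 1 of the 6 was in 51.5% of 11928 tested genes, and the other 5 measured members held none. Their part in these values was not tested.

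TJP1, the gene of the scaffold ZO-1, had 1428 and 1402 counts in control and 1652 and 1677 counts in knockdown libraries. Both knockdown libraries were above both controls by a small margin. The level was 115.1 ± 0.312 CPM in control and 132.3 ± 3.98 CPM in knockdown cells (SD, n = 2 each). The log2 change was 0.20, with an unadjusted 95% interval of 0.03 to 0.37 that did not pass once adjusted (edgeR adjusted p = 0.0544). It passed without a normalization factor (edgeR adjusted p = 0.0230). Of its 2 rows, NM_003257 is known as the form with the alternative alpha exon and NM_175610 as the form without it. The first had 28 and 27 more counts than the second in control and 32 and 29 more in knockdown libraries, or 1.96% and 1.93% against 1.94% and 1.73% of its counts. These shares differed little between groups. The transcripts matched to the rows had 7950 and 5007 nucleotides, so the count difference is not a measure of that exon alone. Whether use of the exon shifted was not tested, and the difference rests on few reads.

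**Figure D2:**
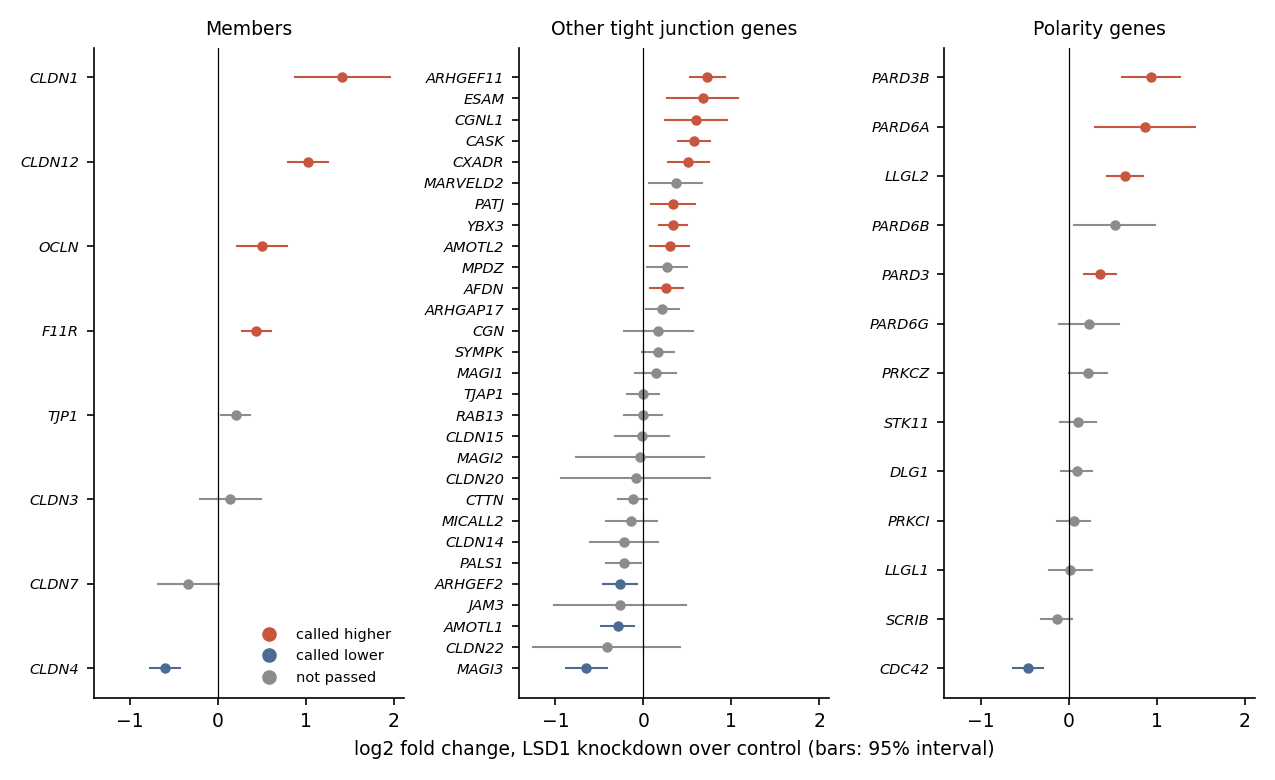
Log2 fold change of LSD1 knockdown over control (x axis) with its unadjusted 95% interval for the 8 members, 29 other tested tight junction genes and 13 polarity genes, coloured by the edgeR call. Members run from -0.60 for CLDN4 to 1.41 for CLDN1, a wider span than the other tight junction genes, which run from -0.65 for MAGI3 to 0.73 for ARHGEF11.

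Levels of different genes were set side by side as CPM per kilobase, with the longest GENCODE transcript matched to a row of each gene. In control cells CLDN4 stood at 199.3 ± 0.144 CPM per kilobase, followed by F11R at 22.7 ± 0.203 and TJP1 at 14.5 ± 0.0392 (SD, n = 2 each). CLDN12 at 6.14 ± 0.323 and CLDN3 at 6.13 ± 0.446 CPM per kilobase did not differ beyond their spread. CLDN7 came next at 4.82 ± 0.463, then OCLN at 1.64 ± 0.0168 and CLDN1 at 0.527 ± 0.124 CPM per kilobase. The shortest matched transcripts raised CLDN12 to 19.9, OCLN to 6.03, CLDN7 to 7.55 and TJP1 to 23.0, so the order below CLDN4 depends on the transcript chosen, with CLDN1 the lowest either way. For CLDN12, OCLN and CLDN7 the shortest length was matched to the row whose counts were used, and for TJP1 the longest was. These are lengths of matched GENCODE v29 transcripts, not of the counted rows. CLDN12 rows matched to 1098 and 3565 nucleotides had 282 and 281 counts in control replicate 1. Which length fits the counts was not tested.

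CLDN4 made up 91.5% and 92.2% of the summed CPM per kilobase of the 5 claudin members in the controls and 82.8% and 85.6% after knockdown. Both knockdown libraries were below both controls. CLDN12 went from 2.93% and 2.73% to 9.15% and 6.97% of the sum, and CLDN1 from 0.202% and 0.284% to 0.983% and 0.827%. With the shortest transcripts the CLDN4 share was 84.8% and 85.9% in control libraries. In knockdown libraries it was 67.9% and 73.2%. An exact two-sided permutation test over the libraries gave p = 0.333 for the CLDN4 share, the smallest that 2 against 2 allows. In raw counts there were 239 and 171 CLDN4 reads for each CLDN1 read in control and 44.3 and 54.5 in knockdown libraries, and 16.1 and 17.3 against 4.65 and 6.31 for each CLDN12 read.

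**Figure D3:**
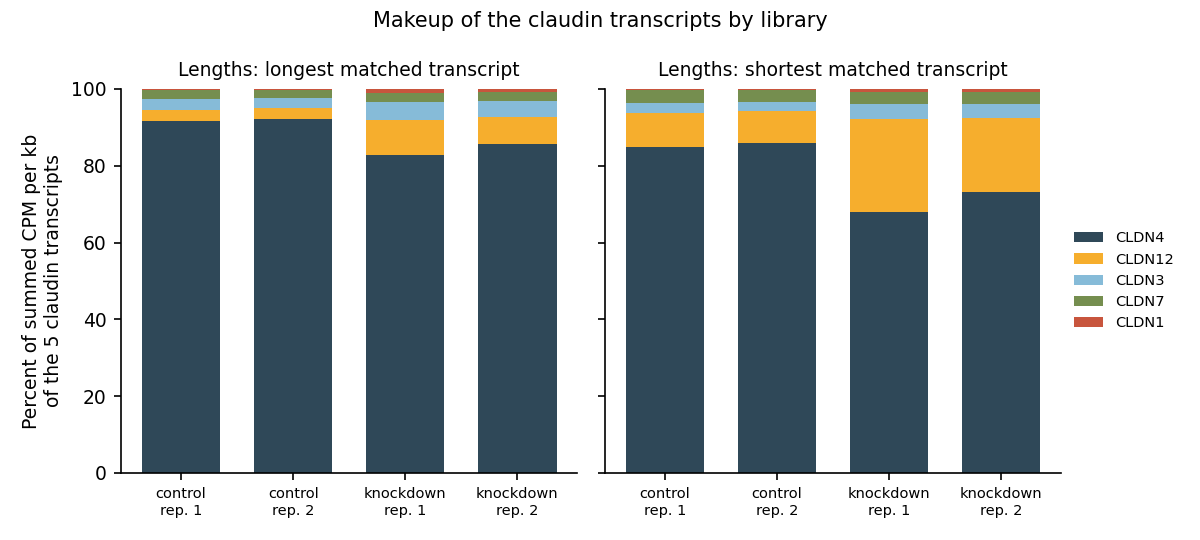
Share of each of the 5 claudin members in their summed CPM per kilobase (y axis, percent) in each library, with the longest matched transcript per gene on the left and the shortest on the right. CLDN4 takes the largest share in all 4 libraries and a smaller one in both knockdown libraries, where CLDN12 takes more.

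None of the other 18 claudin genes searched was called by edgeR. Of these 14 were too low to test, with at most 6 counts in any library, and 5 of the 14 were at 0 in all libraries. The 4 tested ones were CLDN14 at 9.33 ± 2.73 CPM in control and 8.06 ± 1.79 CPM in knockdown cells, CLDN15 at 14.0 ± 0.988 and 13.9 ± 3.42 CPM, CLDN20 at 1.10 ± 0.0403 and 1.03 ± 0.042 CPM, and CLDN22 at 1.38 ± 0.208 and 1.04 ± 0.492 CPM (SD, n = 2 each). CLDN5, the claudin of endothelium, had 5 and 0 counts in control and 3 and 0 in knockdown libraries.

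Beyond the claudins, 2 other membrane genes of tight junctions rose. They were in a list of 30 genes that also held those 18 claudins. Of its 8 tested genes 4 were claudins, and 0 of the 8 fell. Over all tested genes 18.2% were called higher and 17.9% lower, together 36.1%, and no share is read from so few genes. CXADR, the coxsackievirus and adenovirus receptor, which sits at epithelial junctions, had 256 and 251 counts in control and 386 and 353 in knockdown libraries and rose 1.43-fold (edgeR adjusted p = 0.000678). ESAM, an adhesion molecule best known from endothelium, went from 61 and 51 to 86 and 97 counts and rose 1.59-fold (edgeR adjusted p = 0.00718). The ESAM call was lost without control replicate 2 (edgeR adjusted p = 0.0721), without LSD1 knockdown replicate 2 (edgeR adjusted p = 0.0509) and with DESeq2 (DESeq2 adjusted p = 0.089). MARVELD2, which encodes tricellulin of tricellular contacts, was named after its values were seen and missed the threshold (edgeR adjusted p = 0.0501), with 123 and 126 against 152 and 177 counts.

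Of 21 tested plaque genes, which build the cytoplasmic side of the junction, 7 rose, 3 fell and 11 did not pass, with a median log2 fold change of 0.17, where 18.2% of all tested genes were called higher and 17.9% lower. ARHGEF11, a RhoA exchange factor that binds ZO-1, rose from 37.9 ± 3.7 to 62.7 ± 4.19 CPM (SD, n = 2 each, edgeR adjusted p = 4.96e-07). CASK, a membrane-associated guanylate kinase scaffold, rose 1.49-fold, and YBX3, the ZO-1 binding transcription factor also called ZONAB, rose 1.26-fold. MAGI3, another guanylate kinase family scaffold, fell 1.57-fold, from 28.6 ± 0.931 to 18.3 ± 0.856 CPM (SD, n = 2 each, edgeR adjusted p = 3.96e-05). CGNL1, which encodes paracingulin, rose 1.52-fold, but the call was lost without control replicate 1 (edgeR adjusted p = 0.1), without LSD1 knockdown replicate 2 (edgeR adjusted p = 0.113) and with DESeq2 (DESeq2 adjusted p = 0.0801). AMOTL1, an angiomotin-like protein, fell 1.22-fold, and that call was lost without control replicate 2 (edgeR adjusted p = 0.277) and with DESeq2 (DESeq2 adjusted p = 0.057). Over membrane and plaque genes together 9 of 29 rose and 3 fell, so 12 of 29 were called, near the 36.1% of all tested genes. Without control replicate 1 or without LSD1 knockdown replicate 2 only 5 were called higher, and DESeq2 called 4 higher and 1 lower.

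Among 13 polarity genes, which place the junction along the cell side, 4 rose, 1 fell and 8 did not pass, with a median log2 fold change of 0.22. That is 5 of 13 called, near the 36.1% called over all tested genes. PARD3, the partner through which F11R reaches the PAR complex, rose 1.28-fold (edgeR adjusted p = 0.00182), from 782 and 789 to 1033 and 1022 counts. Its relative PARD3B rose 1.91-fold and LLGL2, a basolateral polarity protein, 1.55-fold. PARD6A rose 1.82-fold from 23 and 23 to 40 and 46 counts, a call that was lost with DESeq2 (DESeq2 adjusted p = 0.149) and without control replicate 1, control replicate 2 or LSD1 knockdown replicate 2 (edgeR adjusted p = 0.0835, 0.0664 and 0.0901). CDC42, the small GTPase that activates the PAR complex, fell 1.38-fold, from 250.9 ± 20.3 to 182.1 ± 7.23 CPM (SD, n = 2 each, edgeR adjusted p = 4.17e-05).

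Of 13 tested transcription and splicing regulators of epithelial genes 3 rose, 5 fell and 5 did not pass, beside 18.2% called higher and 17.9% called lower over all tested genes. SNAI2, which encodes the repressor Slug, fell from 602 and 601 to 180 and 220 counts, or 3.08-fold (edgeR adjusted p = 3.37e-13). ZEB1, another repressor of junction genes, fell 1.33-fold (edgeR adjusted p = 0.00327), while SNAI1, which encodes Snail, went from 84 and 92 to 125 and 143 counts and rose 1.49-fold (edgeR adjusted p = 0.00648). The SNAI1 call was lost without control replicate 1 (edgeR adjusted p = 0.0654), without LSD1 knockdown replicate 2 (edgeR adjusted p = 0.0554) and with DESeq2 (DESeq2 adjusted p = 0.079). The epithelial splicing factor gene ESRP1 rose 5.05-fold and the epithelial ETS factor gene EHF 3.71-fold, from 14 and 9 to 47 and 41 counts. KLF4 fell 1.44-fold and KLF5 1.28-fold, both Krüppel-like factors of epithelia. GRHL2, a known activator of claudin genes including CLDN4, had at most 2 counts in any library and was named after its values were seen. CDH1, which encodes the E-cadherin of the adjacent adherens junction, rose 2.42-fold, from 161 and 170 to 389 and 433 counts (edgeR adjusted p = 3.74e-10).

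Beside the start-site windows above, OCLN, with matches in both of its windows, rose. CLDN7, with 5 matches in its second window, TJP1, with 1 in its first, and CLDN3, with 1 after its start, did not pass. CLDN1 and CLDN12, which rose, and CLDN4, which fell, had none in these windows. Sites elsewhere were not searched, and nothing about binding follows from these letters.

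**Figure D4:**
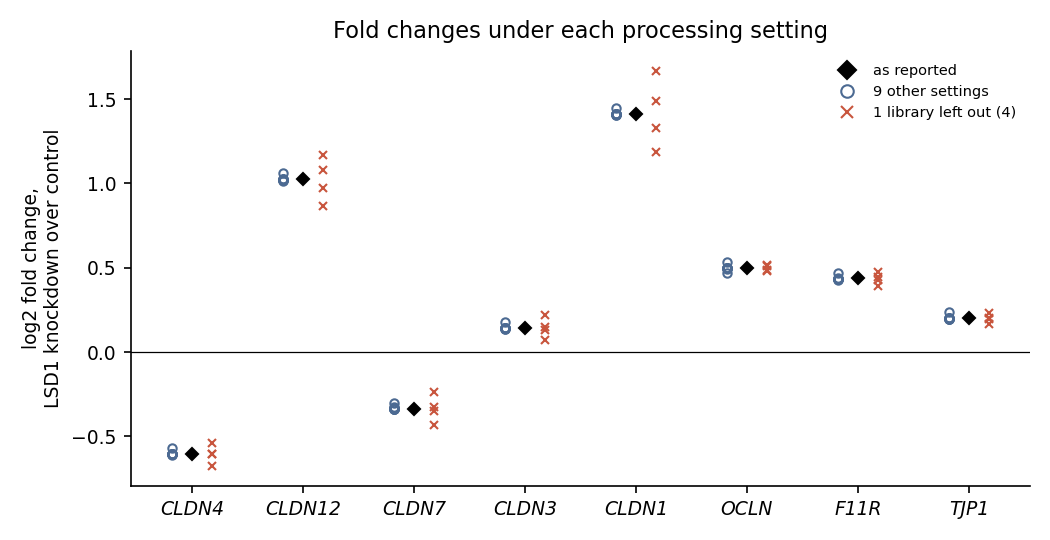
Log2 fold change of LSD1 knockdown over control (y axis) for each member as reported, in 9 other processing settings and with each of the 4 libraries left out. Each of the 8 members keeps its side of 0 throughout, and CLDN1 spreads most, from 1.19 to 1.67.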

How the data were processed

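Total RNA of 4 libraries was sequenced. The authors deposited 1 table of raw read counts per RefSeq transcript for each library, without a header, normalization or pooling. Per the submitters' processing notes, the build was hg19 and the tools included TopHat2, HOMER, DESeq 1.8.3 and edgeR. What each tool did, and whether counting used strand, is not stated. RefSeq accessions were matched to symbols with a RefSeq gene table of GRCh38.p14 (37201 of 38767 rows) and GENCODE v29 metadata (476 rows). The 1090 unmatched rows, 1.38% to 1.40% of counts, were left out. The row with the highest mean count stood for a symbol.

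Counts were scaled by TMM, filtered with filterByExpr (count of 10, total of 15) and fitted across all genes with edgeR 4.0.16 in R 4.3.3 (quasi-likelihood test, group as the only term), with Benjamini-Hochberg adjustment over 13247 genes. The standard error is the log2 fold change divided by the root of its F statistic. Alternatives were DESeq2 1.42.0, limma-voom (limma 3.58.1), other scaling and filters, a replicate block, row sums, unmatched rows kept and leaving out each library. Members, lists and 7-mers were chosen with earlier results of these data known. Named genes were all members, KDM1A, the called genes of each list (at most 6 with the smallest adjusted p), CDH1, SNAI1, SNAI2 and ZEB1. 1 further gene that the choice of members covers is not reported here. Symbols and windows come from GRCh38, so no gene coordinates in hg19 are given.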

Additional observations from a re-analysis of the deposited data

How the results depend on the processing

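In 13 alternative settings each (9 of scaling, filter, test or rows and 4 that left out 1 library), no member and not KDM1A changed direction, and 6 of the 8 members and KDM1A kept their side of the threshold. OCLN was not called by DESeq2 (log2 fold change 0.50, DESeq2 adjusted p = 0.0658). TJP1 was called without a normalization factor (log2 fold change 0.24). Libraries with the same replicate number did not clearly deviate together (correlation of 0.0676 in 1 pair of numbers), so the numbers were not taken as pairs. With the replicate number as a block, TJP1 was called (log2 fold change 0.20, edgeR adjusted p = 0.0307), and 2632 genes were called higher and 2636 lower, against 2413 and 2375 without it. DESeq2 called 1564 genes higher and 1618 lower, and 4 other tight junction genes higher and 1 lower. Of these genes, 12 were called higher and 2 lower without a normalization factor, and 12 and 4 with the block, against 9 and 3 as reported. Leaving out 1 library gave 5 to 8 other tight junction genes higher and 2 to 3 lower, and 4 members higher and 1 lower in each case. The cause of these differences was not tested. The median over all genes moved by less than 0.1 on the log2 scale in each setting. Each group has only 2 libraries, so p-values draw on dispersion pooled over genes. At 19 to 26 control counts the CLDN1 fold is imprecise.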
